A study of Mus musculus with 28 samples.

Results

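Gene expression in the peripheral blood mononuclear cells (PB MNCs) of 21 irradiated mice was compared with that of 7 nonirradiated control mice, and the genes that changed by a similar amount at every dose were separated from those whose change grew with dose. The 28 samples are the whole series, so every mouse entered the comparison. All mice were female C57Bl6 animals, 10 weeks old, with no other allele or agent named in the sources. The irradiated mice received 50, 200 or 1000 cGy as a single exposure of the whole body to a Cs137 source, 7 mice per dose, and were bled 6 h later, while the 7 controls were bled without irradiation. Whether the controls were placed in the irradiator without exposure, and at which hour they were bled, was not given, so irradiation and handling cannot be told apart in any comparison with them. RNA from each mouse was hybridized with a universal mouse reference RNA on a 2-colour array, and each value is the log2 ratio of the sample to that reference, centred on its array's median. The p-values measure the spread between these mice, 1 array each.

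Ionizing radiation breaks DNA, and the breaks activate the kinase ATM and the transcription factor p53, which raises genes that arrest the cell cycle, repair DNA or start cell death. Lymphocytes, B cells above all, are among the most sensitive cells of the blood, whereas monocytes and granulocytes are more resistant. A mixed blood sample can therefore change through the genes that its cells use and through the cells that remain in it, and in bulk RNA fewer cells of a type and less RNA per cell cannot be told apart.

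The samples carried the markers of blood cells: in controls all 12 B cell, 9 T cell and 6 NK and cytotoxic markers were above the reference, with median log2 ratios of 4.14, 2.59 and 1.92. All 6 neutrophil and all 7 erythroid markers were above it too, with medians of 1.03 and 1.38. A ratio above the reference does not by itself show that such cells were present. The median log2 ratio of an array averaged -0.19 in controls, and -0.153, -0.292 and -0.44 after 50, 200 and 1000 cGy. Centring removes that difference, and it moves the median of all genes at 1000 cGy from -0.0764 without centring to 0.173, with 0.0153 after quantile normalization. A change is therefore read against the median of all probes of the array, with or without a gene. The median of all genes after centring was -0.00538, 0.0414 and 0.173 at 50, 200 and 1000 cGy, so at 1000 cGy it lay above 0. The pooled direction of each named gene and the pooled median of each list were also read under the other 2 scalings. Counts within the lists and list medians at single doses are given with centring only.

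A large part of the genes differed between irradiated and control mice, in both directions. In the fit across all genes (limma, Benjamini-Hochberg adjusted p under 0.05), 2404 of 9076 genes (26.5%) were higher in the mean of the 3 doses than in controls and 1821 (20.1%) were lower. Without centring the split was 1734 higher and 2395 lower, and after quantile normalization it was 2045 and 2145. Doses differed from each other even more widely, since 6297 genes (69.4%) were called in a test across the 3 doses, and 6375 (70.2%) between 1000 and 50 cGy. At the lowest dose alone 729 genes (8.03%) were higher and 353 (3.89%) lower than in controls. These counts at 50 cGy were 1402 and 805 with array weights, and the lower genes were 208, 219 and 220 without 50 cGy replicate 3, control replicate 3 and 50 cGy replicate 7. The 3 comparisons with control share the same 7 control mice, whereas the differences between doses do not use them.

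Most changes of some size grew with dose. Of the 1428 genes called at 1.5-fold or more in the mean of the doses, 1317 (92.2%) differed between doses, and in 1324 the change was larger at 1000 than at 50 cGy by the test of that difference. The 1025 higher genes among them had median log2 fold changes of 0.31, 1.03 and 1.45 at 50, 200 and 1000 cGy, and the 403 lower genes had -0.24, -0.85 and -1.21. In 194 of the 1428 some dose had the opposite sign. A pooled change was thus in most genes an average over unequal doses.

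**Figure D1:**
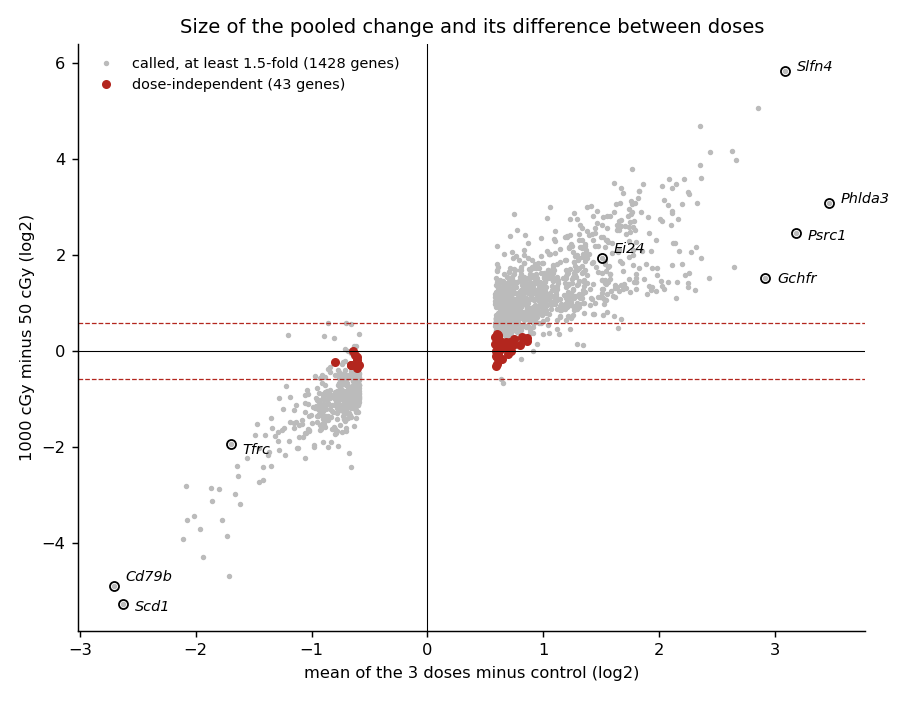
Each point is a gene called at 1.5-fold or more, with the mean of the 3 doses minus control (log2) on the x axis and 1000 cGy minus 50 cGy (log2) on the y axis. The dashed lines mark a 1.5-fold difference between doses, and the 43 dose-independent genes (red) lie between them while most of the 1428 genes fan out with size.

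A gene was called dose-independent when it was called in the mean of the doses at 1.5-fold or more and when the 95% intervals of all 3 differences between doses lay within 1.5-fold (0.585 on the log2 scale). This rule shows that doses were alike within that margin, not that they were equal. It was met by 34 higher genes (0.375% of 9076) and 9 lower genes (0.0992%), which is 3.01% of the 1428. The values that chose these genes are given as a description. Their changes were modest, from 0.586 to 0.858 in the higher genes and from -0.801 to -0.586 in the lower genes. Of the 43 genes, 40 were called at 50 cGy on its own, 11 were also called as differing between doses within the margin, and all were read by a single probe.

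The edge of the rule was not a gap in the data. Colec12 (0.58) and Gipc1 (0.58) lay just outside the size limit and Slc9a8 (0.59) and Mob2 (0.59) just inside it, and among lower genes Nfu1 (-0.58) was just outside and Gimap7 (-0.59) just inside. A further 79 of the 1428 genes were neither called between doses nor alike within the margin. The median SE of the difference between 1000 and 50 cGy was 0.22 in them, 0.122 in the dose-independent genes and 0.129 over all genes. Hsp90aa1, a heat shock chaperone chosen after its values were seen, was such a gene, with -0.69, -0.82 and -1.02 at the 3 doses and a difference of -0.32 between 1000 and 50 cGy (95% interval -0.61 to -0.04). Ppif, the mitochondrial cyclophilin, was another, and its lowest control value of -6.48 lay far below the control median of -0.62. A value that low is near the lowest ratio of the deposited data, 0.01, and may not be a measured level.

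The scaling of the arrays decided much of the membership. Without centring 43 genes met the rule as higher and 3 as lower, and after quantile normalization 49 and 19 did. Only 8 higher genes and 1 lower gene met it under all 3 scalings, out of 88 and 22 that met it under any. The 9 are S100a13, Mcrip1, Ano10, 1110008P14Rik, Fkbp8, Arpc4, Cyhr1, Kmt5c and Npm1, and they are described first.

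Kmt5c, a methyltransferase that trimethylates lysine 20 of histone H4, had the largest change of the 9. Its log2 ratios ran from -1.26 through a median of -0.85 to -0.65 in controls, from -0.25 through -0.20 to -0.05 at 50 cGy, from -0.38 through -0.05 to 0.17 at 200 cGy and from -0.57 through 0.10 to 0.57 at 1000 cGy. No irradiated mouse overlapped the controls. The log2 fold changes were 0.75, 0.85 and 0.97 at the 3 doses, 0.86 ± 0.119 (SE, n = 21 against 7) in their mean.

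Cyhr1 ran from -1.11 through -0.93 to -0.70 in controls, from -0.44 through -0.19 to 0.05 at 50 cGy, from -0.53 through -0.17 to 0.27 at 200 cGy and from -0.48 through -0.12 to 0.52 at 1000 cGy. Every irradiated value lay above every control value, and the spread grew with dose while the mean moved little, by 0.74, 0.78 and 0.87. Fkbp8, an immunophilin of the mitochondrial outer membrane that binds Bcl2, ran from -0.47 through -0.26 to -0.07 in controls, from 0.03 through 0.48 to 0.60 at 50 cGy, from 0.16 through 0.26 to 1.02 at 200 cGy and from 0.34 through 0.47 to 0.89 at 1000 cGy. Its groups did not overlap, and it was higher by 0.70, 0.69 and 0.82.

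1110008P14Rik ran from -0.55 through -0.40 to -0.12 in controls, from 0.03 through 0.36 to 0.44 at 50 cGy, from 0.05 through 0.37 to 0.63 at 200 cGy and from -0.11 through 0.17 to 0.70 at 1000 cGy. The lowest irradiated mouse lay just above the highest control, and the 3 doses gave 0.68, 0.79 and 0.69. Mcrip1, a nuclear protein that binds the corepressor CtBP, ran from -0.51 through -0.32 to -0.25 in controls, from 0.09 through 0.39 to 0.47 at 50 cGy, from -0.16 through 0.36 to 0.68 at 200 cGy and from -0.03 through 0.38 to 0.70 at 1000 cGy. Its medians at the 3 doses were nearly the same, and it was higher by 0.67, 0.71 and 0.72.

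Ano10, a membrane protein of the anoctamin family, ran from -1.85 through -1.64 to -1.36 in controls, from -1.17 through -1.002 to -0.90 at 50 cGy, from -0.996 through -0.85 to -0.53 at 200 cGy and from -1.31 through -0.74 to -0.62 at 1000 cGy. No value overlapped, and the changes were 0.61, 0.80 and 0.70. S100a13, a calcium-binding protein that takes part in the export of FGF1, ran from -0.01 through 0.03 to 0.21 in controls, from 0.65 through 0.72 to 0.96 at 50 cGy, from 0.46 through 0.84 to 0.90 at 200 cGy and from 0.33 through 0.67 to 1.22 at 1000 cGy. Its groups did not overlap, and its change was as large at 50 cGy (0.71) as at 200 (0.71) and 1000 cGy (0.65), with a difference of -0.06 between 1000 and 50 cGy (95% interval -0.26 to 0.14).

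Arpc4, a subunit of the Arp2/3 complex that starts branched actin filaments, ran from -0.02 through 0.40 to 0.68 in controls, from 0.66 through 0.96 to 1.04 at 50 cGy, from 1.01 through 1.23 to 1.40 at 200 cGy and from 1.01 through 1.18 to 1.35 at 1000 cGy. The lowest mouse at 50 cGy fell within the controls and the 2 higher doses did not. Its change was smaller at 50 cGy (0.57) than at 200 (0.86) and 1000 cGy (0.82), and it was called between doses (adjusted p = 0.0147) although the difference stayed within the margin.

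Npm1, the nucleolar chaperone nucleophosmin that takes part in ribosome assembly, was the lower gene of the 9. It ran from -0.84 through -0.67 to -0.38 in controls, from -1.63 through -1.25 to -1.09 at 50 cGy, from -1.73 through -1.39 to -0.80 at 200 cGy and from -1.71 through -1.33 to -0.68 at 1000 cGy. All mice at 50 cGy lay below the controls, and the 2 higher doses reached into them. Its changes of -0.65, -0.62 and -0.66 hardly differed, and the difference between 1000 and 50 cGy was -0.01 (95% interval -0.31 to 0.30).

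**Figure D2:**
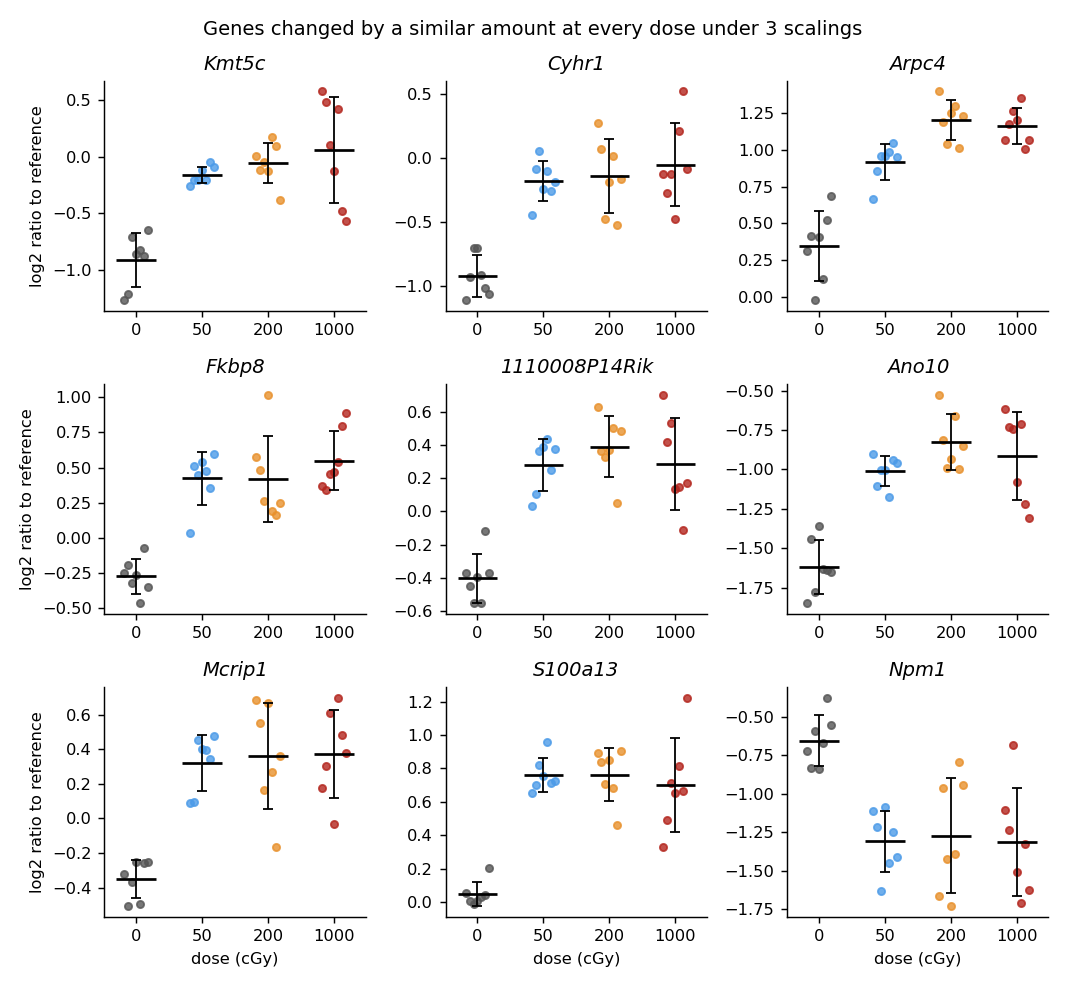
Log2 ratio to the reference (y axis) of each mouse by dose in cGy (x axis) for the 9 genes that met the rule under all 3 scalings, with the mean (line) and SD (bars) of 7 mice. In 7 of the 9 every irradiated mouse lies beyond the controls, and in Arpc4 and Npm1 some overlap.

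The sequences upstream of the 3 genes of this set that hold the letters CCGGAA, the core recognized by ETS family factors, are shown because that motif was the one among 6 counted whose share in the higher genes stood above the share in all tested genes by the most, a choice made after the shares were seen. Promoters came from RefSeq (GRCm38.p6), with only the first listed start of each gene, and 33 of the 43 genes matched. CCGGAA, on either strand, lay within 250 bases upstream of the start in 12 of 27 higher genes (44.4%), in 0 of 6 lower genes, in 21.6% of the tested genes and in 12.2% of all promoters. The other letters searched were TATAAA (14.8% of higher genes against 8.52% of tested genes), CCAAT (33.3% against 36.0%), GGGCGG (48.1% against 56.2%) and CACGTG (3.7% against 8.28%). The capitals mark CCGGAA or its complement in Mcrip1 (chr11:120549728-120549977, minus strand), Ano10 (chr9:122294424-122294673, minus strand) and Arpc4 (chr6:113377863-113378112, plus strand). A match is a description of the letters and no test was made.
Mcrip1: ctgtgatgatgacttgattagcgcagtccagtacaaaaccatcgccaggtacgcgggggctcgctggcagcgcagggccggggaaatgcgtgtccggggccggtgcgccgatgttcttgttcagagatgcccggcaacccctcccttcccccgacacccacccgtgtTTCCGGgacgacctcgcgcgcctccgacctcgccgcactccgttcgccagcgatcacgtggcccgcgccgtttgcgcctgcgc
Ano10: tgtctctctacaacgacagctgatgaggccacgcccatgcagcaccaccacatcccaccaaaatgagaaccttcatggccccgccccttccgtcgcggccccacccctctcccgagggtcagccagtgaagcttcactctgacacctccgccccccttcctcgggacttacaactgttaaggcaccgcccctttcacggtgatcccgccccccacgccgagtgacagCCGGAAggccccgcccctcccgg
Arpc4: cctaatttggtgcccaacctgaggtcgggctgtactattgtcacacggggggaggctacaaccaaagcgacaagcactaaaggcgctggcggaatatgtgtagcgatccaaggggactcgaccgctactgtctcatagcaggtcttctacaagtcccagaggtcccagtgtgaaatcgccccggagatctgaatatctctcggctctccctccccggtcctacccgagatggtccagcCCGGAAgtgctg

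For contrast, the p53 response element was searched as the half-site RRRCWWGYYY and its repeat after a short spacer or none, without mismatches. Here R is A or G, W is A or T and Y is C or T. Such a match was in none of the 27 higher genes and in 4 of the 7402 tested genes with a promoter (0.054%). Among 30 genes of the p53 lists it lay only upstream of Cdkn1a (chr17:29090729-29090978, plus strand). There it began 73 bases before the start listed first for that gene, and its distance to any other start was not read. The capitals mark both half-sites and the spacer between them, and half-sites with a mismatch are not marked. A window of this length does not hold the elements of introns.
Cdkn1a: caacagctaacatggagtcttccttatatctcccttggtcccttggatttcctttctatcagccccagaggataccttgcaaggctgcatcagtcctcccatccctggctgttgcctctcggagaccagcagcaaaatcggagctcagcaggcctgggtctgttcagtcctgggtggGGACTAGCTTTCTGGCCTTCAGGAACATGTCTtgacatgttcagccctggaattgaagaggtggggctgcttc

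Cdkn1a, which encodes the cell cycle inhibitor p21, was a graded gene. Its log2 ratios ran from -1.52 through -1.21 to -0.72 in controls, from -0.19 through 0.01 to 0.19 at 50 cGy, from 0.81 through 1.35 to 1.81 at 200 cGy and from 1.93 through 2.16 to 2.26 at 1000 cGy. Neither the controls nor any pair of doses overlapped.

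Among the dose-independent genes that depended on the scaling, the largest rises were in Tpgs1, a subunit of the tubulin polyglutamylase complex (0.67, 0.96 and 0.94 at 50, 200 and 1000 cGy), and in Gm7426, which is annotated as a pseudogene (0.67, 0.81 and 0.96). Gm7426 was called between doses within the margin (adjusted p = 0.00177). A probe of a pseudogene may also bind RNA of the parent gene. Gm7426 did not overlap the controls, with 1.17 to 1.46 in controls against 1.86 to 2.22 after 50 cGy, 1.96 to 2.28 after 200 cGy and 2.25 to 2.33 after 1000 cGy, whereas 1 or more mice overlapped in Tpgs1. Laptm5, a lysosomal membrane protein of blood cells that lowers antigen receptor levels, was higher by 0.61, 0.71 and 0.80, and Ndufs4, a subunit of mitochondrial complex I, by 0.60, 0.66 and 0.78. Laptm5 overlapped the controls at all 3 doses and Ndufs4 at 50 and 200 cGy. Quantile normalization changed the pattern of Laptm5 to 0.77, 0.36 and -0.08, with the sign turned at 1000 cGy, and that of Gm7426 to 0.84, 0.55 and 0.31, and no other of the 43 genes turned sign at a dose under either scaling. Tpgs1 met the rule in 11 of the 28 fits that leave out 1 mouse, Gm7426, Laptm5 and Ndufs4 in all 28.

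The 9 lower genes had varied roles. Eif3e, a subunit of the translation initiation factor eIF3, fell most, with -0.65, -0.87 and -0.88 at the 3 doses. It ran from -0.70 through -0.44 to 0.05 in controls and no irradiated value was above -0.84. Nono, an RNA-binding protein of paraspeckles, changed by -0.47, -0.75 and -0.76, and Cops7b, a subunit of the COP9 signalosome, by -0.36, -0.74 and -0.72. These 3 did not overlap the controls, while Nono and Cops7b were smaller at 50 cGy and were called between doses within the margin. Rpp14, a subunit of ribonuclease P, changed by -0.44, -0.76 and -0.62, Tpp2, a large peptidase that works after the proteasome, by -0.47, -0.76 and -0.75, and Sfr1, which acts in recombination repair, stood at -0.56 (adjusted p = 0.0621), -0.69 and -0.64. Serinc1, a membrane protein, and Gimap7, a lymphocyte GTPase, changed by -0.48, -0.73 and -0.61 and by -0.38, -0.71 and -0.67. Rpp14 and Gimap7 were also called between doses within the margin (adjusted p = 0.0454 and 0.0378). Gimap7 met the rule in only 4 of the 28 fits that leave out 1 mouse, and Npm1 and Eif3e in all 28. In 8 of the 9 the change was smallest at 50 cGy, so the lower genes leaned towards the higher doses even inside the margin.

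The other higher genes were of mixed roles. They include Ndufa11, another subunit of complex I, and Syngr2, a vesicle membrane protein, both with a change that was smaller at 1000 than at 50 cGy. Carm1, an arginine methyltransferase of histones, Ccng2, a cyclin of arrested cells, Eci2, an enzyme of fatty acid oxidation, Nudt7, a peroxisomal hydrolase, and Gpaa1, which attaches lipid anchors to proteins, were also among them. Ccng2 and Eci2 were called between doses within the margin (adjusted p = 0.0156 and 0.0102). Of all 34, 24 had a larger change at 1000 than at 50 cGy and 22 had their smallest change at 50 cGy. No overlap between 21 irradiated and 7 control values was found in 12 of the 34 and in 3 of the 9 lower genes. Over all genes, 85 higher (0.937%) and 62 lower (0.683%) did not overlap.

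A larger change at the lowest dose was rare. In 4 of the 1428 genes the change was smaller at 1000 than at 50 cGy by the test of that difference. 2300009A05Rik was highest, at 0.88 through 0.99 to 1.06 at 50 cGy, against 0.05 through 0.51 to 0.89 at 200 cGy, 0.06 through 0.26 to 0.57 at 1000 cGy and -0.56 through -0.12 to 0.65 in controls. Its change fell from 1.03 to 0.57 and 0.37, with a difference of -0.67 between 1000 and 50 cGy (adjusted p = 0.000109 over all genes). Gm6607, a pseudogene, changed by 0.92, 0.66 and 0.34, Ndufa11 by 0.78, 0.53 and 0.50, and Syngr2 by 0.72, 0.65 and 0.41. Ndufa11 ran from -1.03 through -0.84 to -0.43 in controls and from -0.26 through -0.01 to 0.18 at 50 cGy.

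The largest pooled changes among genes that differed between doses are given for comparison. Phlda3, a p53 target that restrains Akt, rose by 1.96, 3.41 and 5.05, and Psrc1, a microtubule-binding p53 target, by 1.83, 3.44 and 4.29. Slfn4, of the schlafen family of myeloid cells, rose by 3.75 and 5.68 at 200 and 1000 cGy and stood at -0.16 at 50 cGy (adjusted p = 0.813). Cd79b, a chain of the B cell receptor, changed by -0.40, -2.41 and -5.30, and Scd1, a fatty acid desaturase, stood at -0.17 (adjusted p = 0.583), -2.27 and -5.44. Pou2af1, a B cell coactivator, stood at -0.29 at 50 cGy (adjusted p = 0.23) and fell by 1.82 and 4.21 at the higher doses. Ei24, an endoplasmic reticulum protein induced by p53, and Ppp1r2, an inhibitor of protein phosphatase 1, were looked at because the study names them as shared by its dose profiles. Ei24 did not overlap the controls at any dose and changed by 0.61, 1.36 and 2.55, and Ppp1r2 changed by 0.61, 1.44 and 1.56. Both were called between doses (adjusted p = 2.86e-17 and 2.44e-10), so neither met the rule. Among the unnamed probes picked for the same reason, M300015969 (0.97, 1.00 and 1.21) and M300006426 (-0.51, -0.69 and -0.81) met the rule and M300017997 (-0.44, -0.67 and -1.03) did not.

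The 35 p53 target genes measured form 3 lists, of 9 genes of cell cycle arrest, 12 of death and survival and 14 of feedback and metabolism, in which 9, 11 and 12 genes differed between doses. In the mean of the doses 7, 10 and 10 genes rose and 0, 1 and 2 fell. Over all genes tested 69.4% differed between doses, 26.5% rose and 20.1% fell. The 3 lists had medians of 1.28, 0.78 and 0.34 in the mean of the doses against 0.06 over all genes tested. None of the 35 met the rule, which at 0.375% and 0.0992% of all genes is what the background share gives. Ccng1, a cyclin that feeds back on p53, rose by 1.44, 2.22 and 3.03.

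A few p53 genes of smaller size were alike at the 3 doses, chosen after their values were seen. Tigar, a phosphatase that lowers glycolysis, stood at 0.50, 0.52 and 0.48 at the 3 doses. It ran from -2.45 through -1.83 to -1.33 in controls, from -2.38 through -1.29 to -0.96 at 50 cGy, from -1.78 through -1.42 to -0.98 at 200 cGy and from -2.37 through -1.31 to -1.04 at 1000 cGy, so the groups overlapped. Its call was weak (adjusted p = 0.0214) and was lost without centring (adjusted p = 0.0748) and without any 1 of control replicates 2, 3 and 7. Siva1, a pro-apoptotic p53 target, changed by 0.54, 0.37 and 0.54, with controls of -2.03 through -1.87 to -1.66 against -1.45 through -1.40 to -1.03 at 50 cGy, -1.69 through -1.55 to -1.22 at 200 cGy and -1.56 through -1.31 to -1.15 at 1000 cGy. In this average of 2 probes only the 200 cGy group reached into the controls. At the probe M300002682 the highest control was -1.63, and the lowest mice at the 3 doses were at -1.71, -1.97 and -1.89. At M300002683 the highest control was -1.21, and the lowest mice were at -1.21, -1.51 and -1.26. The single probes thus overlapped the controls at other doses too.

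**Figure D3:**
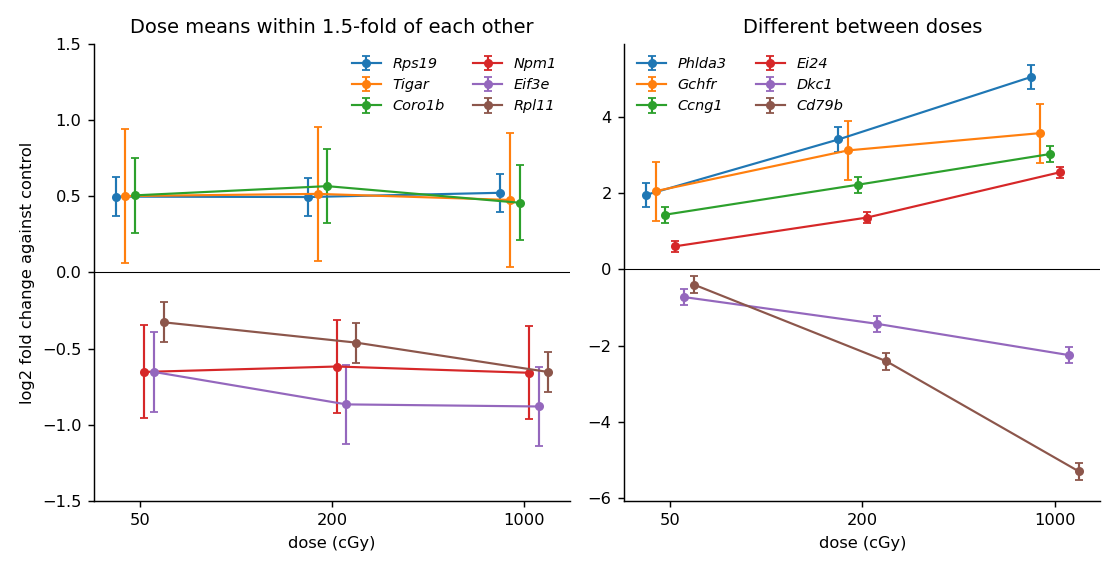
Log2 fold change against the controls (y axis) by dose in cGy (x axis), with 95% intervals from the fit, for genes whose doses were alike within 1.5-fold (left) and genes that differed between doses (right, wider scale). Rpl11, on the left, was also called between doses, within that margin. Tigar and Coro1b keep about the same value at 50, 200 and 1000 cGy, as does Rps19 as the average of 3 probes of which 2 run in opposite directions, whereas Phlda3 goes from 1.96 to 5.05 and Cd79b from -0.40 to -5.30.

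With no minimum size, 518 called genes were higher (5.71%) and 426 lower (4.69%) with doses alike within the margin. Over all genes tested 2620 (28.9%) had doses alike within the margin, called or not. Among genes with several probes, whose values are averages, 540 of 1309 were alike. Of the lists, ribosomal proteins held the largest share, with 36 of 51 measured alike within the margin. In the pooled comparison 7 rose and 24 fell, beside 26.5% and 20.1% of all genes, and none met the rule at 1.5-fold. Of 40 proteins of the large subunit 23 fell and 4 rose, and of 11 of the small subunit 1 fell and 3 rose. That split was made after the values were seen and was not tested. The 3 rises of 11 are near the share of all genes. The pooled median of the small subunit was -0.11 with centring, -0.22 without it and -0.08 after quantile normalization.

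Rps19, a protein of the small ribosomal subunit, had the smallest adjusted p of the list. Its log2 ratios ran from 0.68 through 0.75 to 0.82 in controls, from 1.16 through 1.26 to 1.30 at 50 cGy, from 1.06 through 1.27 to 1.41 at 200 cGy and from 1.17 through 1.27 to 1.45 at 1000 cGy. The controls were apart from every irradiated mouse, and it rose by 0.50, 0.49 and 0.52 at the 3 doses (adjusted p = 3.15e-09 for the mean). The steadiness belongs to the average of its 3 probes. M300016018 gave 0.72, 0.71 and 0.83, while M300012951 went down with dose, from 0.47 to 0.25 and 0.18 (adjusted p = 0.00338 between doses), and M300014689 went up, from 0.30 to 0.53 and 0.55 (adjusted p = 0.00905). Ribosomal genes have near-identical pseudogenes that a probe could share. Rps12 and Rps16 also rose, by 0.56, 0.39 and 0.37 and by 0.53, 0.43 and 0.27. Rpl11 fell by 0.33, 0.46 and 0.65 and did not overlap the controls, and Rpl13 fell by 0.41, 0.54 and 0.63. Both were called between doses within the margin (adjusted p = 0.00028 and 0.0385), and in each 1 of the 2 probes was graded. Of 73 oxidative phosphorylation genes 21 rose and 19 fell in the mean of the doses, near the 26.5% higher and 20.1% lower over all genes. The pooled median of this list was 0.03 with centring, -0.08 without it and 0.05 after quantile normalization. Doses were alike within the margin in 47 of the 73, called or not, and 13 of the rises and 10 of the falls were among these. Ndufs4 and Ndufa11 met the rule. Cox8a and Cox6b1, subunits of cytochrome oxidase, were graded, at 0.26, 0.83 and 1.39 and at 0.46, 0.64 and 1.04.

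Over all genes 26.5% rose and 20.1% fell in the mean of the doses, and 28.9% were alike within the margin, called or not. Of 32 proteasome genes 2 rose and 9 fell in the mean of the doses, and 22 of the 32, called or not, were alike within the margin. Psmc2, an ATPase of the regulatory particle, fell by 0.38, 0.54 and 0.55 with no overlap, and Psmb6 of the catalytic core by 0.40, 0.43 and 0.30. Of 40 translation factors and tRNA synthetases none rose and 28 fell, and 15 were alike within the margin. Besides Eif3e, Eif4a2, an RNA helicase of initiation, fell by 0.36, 0.54 and 0.34, and Nars, the asparagine tRNA synthetase, by 0.42, 0.54 and 0.69. Vars, the valine tRNA synthetase, was graded, at -0.28 (adjusted p = 0.131), -1.45 and -2.14. Of 31 ribosome biogenesis genes 23 fell and 1 rose, and of these Npm1 alone met the rule while Dkc1, which modifies ribosomal RNA, fell by 0.73, 1.43 and 2.25. Of 27 heat shock and chaperone genes 20 fell and 2 rose, and 4 were alike within the margin. The medians of the translation, ribosome biogenesis and heat shock lists were negative under all 3 scalings.

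The enzymes that make tetrahydrobiopterin, the cofactor of nitric oxide synthase, are known from nitric oxide and pterin metabolism, and with related genes they form a list of 9. Like the other lists, it was chosen with earlier results of these data known, so its counts are a description and were not tested. Of these 9 genes 6 rose and 2 fell, beside 26.5% and 20.1% of all genes. Doses were alike within the margin in 4 of the rises, beside 5.71% of all genes called higher and alike. Gchfr, which feeds back on the first enzyme, rose by 2.05, 3.12 and 3.58. Its controls spread widely, from -2.36 through 0.30 to 1.03, and 50, 200 and 1000 cGy ran from 1.26 to 2.44, 2.32 to 3.56 and 2.50 to 4.08. Pts, the second enzyme of the route, rose by 0.41, 0.52 and 0.69 with no overlap and was called between doses within the margin (adjusted p = 0.0201). Spr, the last enzyme, rose by 0.39, 0.42 and 0.29 as the average of 2 probes that differed, at 0.59 and 0.15 in the mean of the doses, and Pcbd2, a recycling enzyme, was at 0.28, 0.51 and 0.37. Asl, which makes arginine, was at 0.33, 0.39 and 0.29. Pcbd2 and Asl lost the call without centring (adjusted p = 0.0803 and 0.0618), and Spr lost it with 1 probe per gene (adjusted p = 0.251).

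Other lists gave single genes of this kind. Coro1b, a coronin that binds the Arp2/3 complex, rose by 0.51, 0.57 and 0.46. Hk1, a hexokinase, stood at 0.48 (adjusted p = 0.0779), 0.67 and 0.54. Nr1d2, a repressor of the circadian clock, stood at -0.32 (adjusted p = 0.222), -0.53 and -0.46, and of 13 clock genes 2 rose and 5 fell. Of 16 glucocorticoid-responsive genes 10 rose and 2 fell, beside 26.5% and 20.1% of all genes, and 2 of the rises were alike within the margin. The clock counts are near that background.

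**Figure D4:**
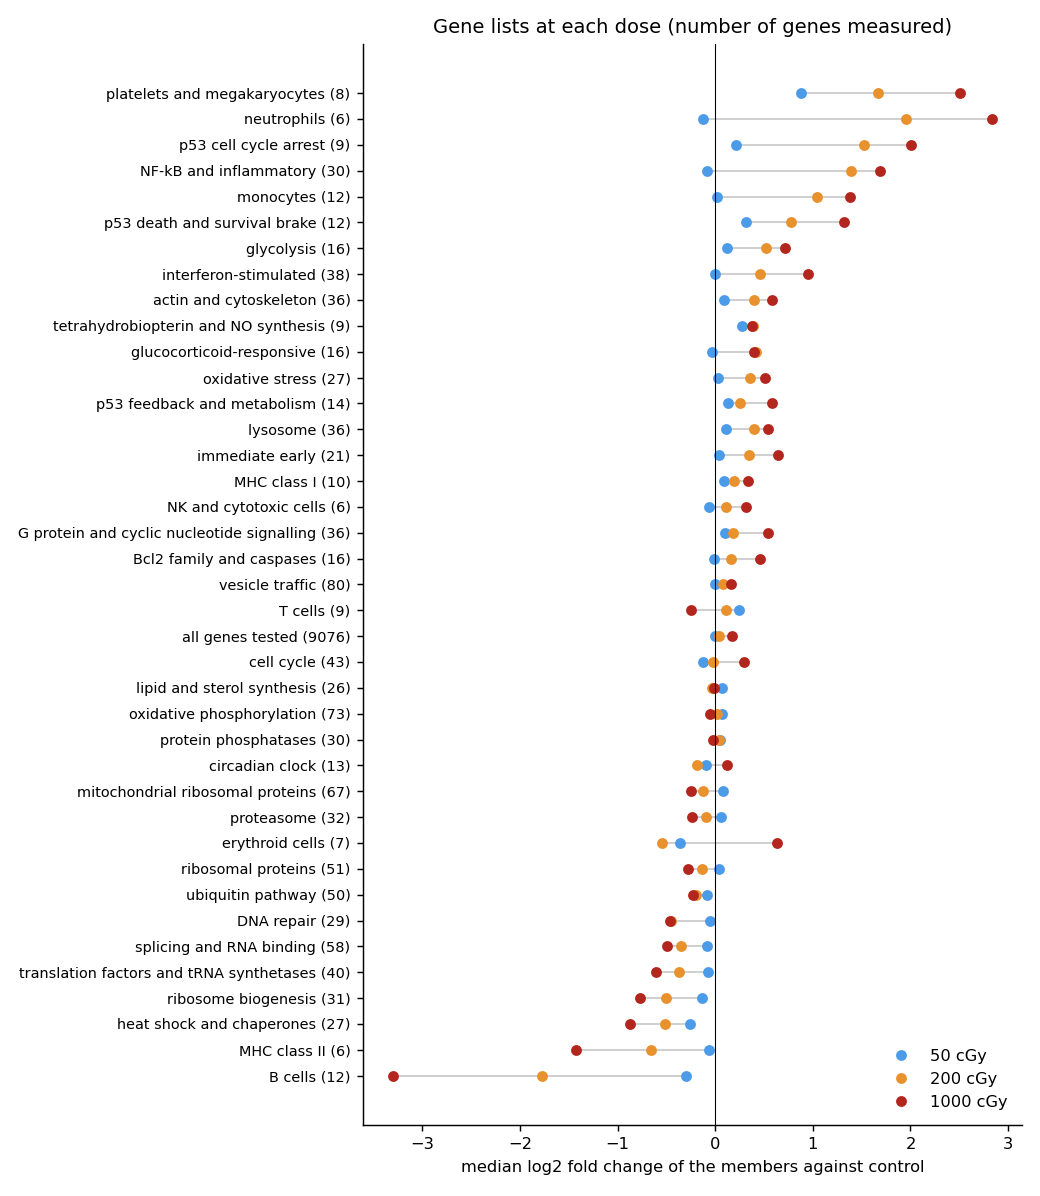
Median log2 fold change against controls (x axis) of each gene list and of all genes tested (y axis, number of genes measured in brackets) at 50 cGy (blue), 200 cGy (orange) and 1000 cGy (red). The medians of B cells reach -3.30 and of neutrophils 2.84 at 1000 cGy, while ribosomal proteins and oxidative phosphorylation stay close to 0.

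Cell type markers moved with dose. Of 60 markers measured, 44 were called in the mean of the doses (26.5% higher and 20.1% lower over all genes) and 55 differed between doses (69.4% over all genes). None met the rule, which is near the background share of 0.375% and 0.0992%. B cell markers had medians of -0.30, -1.77 and -3.30 at the 3 doses, neutrophil markers -0.125, 1.95 and 2.84, monocyte markers 0.02, 1.04 and 1.38, and platelet markers 0.87, 1.67 and 2.51. T cell markers had 0.25, 0.11 and -0.25, NK and cytotoxic markers -0.07, 0.11 and 0.32, and erythroid markers -0.37, -0.54 and 0.63. The pooled median of the T cell and NK lists changed sign with the scaling, at 0.08 and 0.17 with centring and -0.23 and -0.24 after quantile normalization. Cd3g, a chain of the T cell receptor complex, stood at 0.18 (adjusted p = 0.311) at 50 cGy and fell by 1.13 at 1000 cGy. Only Thy1, a T cell surface protein (0.27, 0.31 and 0.45), and Klrc1, an NK receptor (0.26, 0.39 and 0.39), were called and alike within the margin. Klrc1 lost its call without centring (adjusted p = 0.0545) and after quantile normalization (adjusted p = 0.618). The part of these cells in the dose-independent changes was not tested. At 50 cGy the platelet median was the largest of the cell type lists in size. There 3 of 8 platelet and 3 of 9 T cell markers were called higher, beside 8.03% of all genes. At that dose 0 of 6 neutrophil and 0 of 12 monocyte markers were called, near the background of 8.03% higher and 3.89% lower.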

How the data were processed

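PB MNC RNA of 28 mice was labelled with Cy5 and a universal mouse reference RNA with Cy3, and both were hybridized to Operon 70-mer oligonucleotide arrays. Per the study's methods, the authors took the median of ratios of each spot, removed spots with a low signal in either channel, and imputed missing values from nearest neighbours. The deposited table holds log2 ratios of sample to reference for 16722 probes with 2174 missing values. The between-array normalization, not given in the sources used here, can shift small changes, and the missing values show that the deposited table was not imputed. The table holds no signal intensities, so depth and signal over background are unknown and the number of arrays limits the precision.

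Arrays were centred on their medians. In the platform annotation 10820 probes have 1 gene, 232 have several and 5670 have none. Probes of 1 gene were averaged after each was set to its own mean. The 9076 genes with at least 5 values per group were fitted in limma 3.58.1 (R 4.3.3) with 4 group means over all 28 arrays, and p-values were adjusted by Benjamini-Hochberg over all genes at 0.05. Tables were made in Python 3.11.15 with pandas 2.3.3. The fit was tested on simulated data. The members and lists were chosen with earlier results of these data known. Genes were named by a rule: up to 12 rises and 12 falls of dose-independent genes, those under all 3 scalings with no overlap first, the 3 largest rises and 3 largest falls among genes that differed between doses, the 2 list members with the smallest adjusted p, the genes and probes the study names as shared by its doses, and any dose-independent p53, clock, glucocorticoid or cell type gene. Genes outside this rule were picked with their values in view. The alternatives tried were arrays without centring, arrays after quantile normalization, weights per array, robust moderation of the variance, the replicate number as a block, complete genes only, 1 probe per gene, each probe on its own, each sample left out, other margins, no minimum size and 90% intervals. A further alternative, which treats the lowest ratio of 0.01 as missing, was chosen after seeing the data. Gene lists without values in the report are plotted by dose.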

Additional observations from a re-analysis of the deposited data

Results flagged for a closer look

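For the 36 genes given by individual values, 144 groups of 7 values were searched for a sample far from the rest by Dixon's gap test, and 19 samples stood out. Chance flags about 1 in 20 groups.

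Replicate 1 at 50 cGy stood apart in 6 genes. It was the lowest of its group in Fkbp8 (0.0322), Laptm5 (2.86), Ndufs4 (-0.597), Serinc1 (-0.524) and Tigar (-2.38), and the highest in Tpp2 (0.868). In Laptm5, Ndufs4, Tigar and Tpp2 these values lay within the range of the controls.

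Among the controls, replicate 7 was high in S100a13 (0.205) and Slfn4 (3.52) and low in Pou2af1 (0.545). Control replicate 3 was high in Serinc1 (0.995) and low in Ppp1r2 (0.0195), control replicate 6 was high in 1110008P14Rik (-0.119) and control replicate 2 was high in Nono (0.273).

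At 200 cGy, replicate 6 was low in Laptm5 (3.12), and replicate 2 was low in Tpp2 (-0.427) and high in Serinc1 (-0.14). At 1000 cGy, replicate 1 was low in Gm7426 (2.25), replicate 4 was low in Ppp1r2 (1.56) and replicate 7 was low in Tigar (-2.37).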

How the results depend on the processing

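The pooled changes of the 130 named genes kept direction and call in 4660 of 4673 values over all alternatives. Klrb1c, an NK receptor, turned to -0.0257 after quantile normalization, and 12 values of 6 genes, Klrb1c, Klrc1, Tigar, Asl, Pcbd2 and Spr, lost the call. The lower dose-independent genes were 3 without centring, 19 after quantile normalization, 16 with array weights and 16 with 90% intervals, against 9, and the cause was not tested. Array weights gave 1402 higher and 805 lower genes at 50 cGy. A margin of 0.32 on the log2 scale left 4 higher and 0 lower dose-independent genes, a margin of 1 gave 170 and 101, and no minimum size 518 and 426. With each probe on its own, which tests 16600 features, 4150 were higher, 3670 lower, 60 and 34 dose-independent, 11412 different between doses, and 1367 higher and 852 lower at 50 cGy. With 1 sample left out, dose-independent genes ranged from 24 to 39 higher and from 4 to 12 lower, lowest without control replicate 3 and without 50 cGy replicate 5. Genes lower at 50 cGy ranged from 208 to 453 of 353, with 208, 219 and 220 without 50 cGy replicate 3, control replicate 3 and 50 cGy replicate 7. Only 15 of the 43 dose-independent genes met the rule in all 28 of these fits. Replicate numbers do not pair the mice: the mean residual correlation was -0.0156 for same-numbered samples and 0.00201 for others, and 4 of 28 were closest to their own number. The replicate block gave 2387 higher, 1814 lower, 30 and 8 dose-independent genes. No depth is known for these arrays.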

Other observations

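Of the probes that met the dose-independent rule on their own, 18 of 60 higher and 20 of 34 lower ones have no gene in the annotation. At 50, 200 and 1000 cGy M300012346 was higher by 0.75, 0.87 and 0.99 and M300017940 by 0.82, 0.79 and 0.74. M300022027 was higher by 0.66, 0.88 and 0.95 and was also called between doses within the margin (limma adjusted p = 0.0396). What they measure was not analysed here.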
